A study of Homo sapiens with 16 samples.

Results

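ATF4, ATF5, DDIT3, TRIB3, DDIT4, SESN2, CHAC1, ASNS, PSAT1 and PHGDH are 10 human genes of the ATF4 stress response, out of 34878 genes with a symbol in the data. They form a hand-made list, and the list was chosen by the counts of CHAC1 at 3 h, which were far below those at 0 h. That difference is therefore given as a description with no test, for all 10 genes, and CHAC1 is also not tested in any other comparison that uses the 0 h or 3 h libraries.

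The genes were measured by RNA sequencing of ribosomal-RNA-depleted total RNA from K562, a human leukaemia line labelled wild type in all groups. Cells received 25 nM PMA (phorbol 12-myristate 13-acetate, a phorbol ester that activates protein kinase C), and were taken at the start (0 h), after 0.5 and 1.5 h, after 3 and 6 h, and after 24, 48 and 72 h. Each time point has 2 libraries, 16 in all. The 0 h libraries are the only controls, so the effects of PMA and of time in culture cannot be told apart. The medium was replaced after 24 h and after 48 h. In the 48 and 72 h libraries the effect of fresh medium also cannot be told apart from these. Nothing in the labels says that the 2 libraries of a time point came from separate cultures, and p-values therefore measure only the spread between these samples.

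ATF4 is a transcription factor whose mRNA is translated well when the initiation factor eIF2 is phosphorylated by stress kinases. It switches on genes that make and import amino acids and charge transfer RNAs, together with genes that slow growth or degrade glutathione. ATF4 is largely controlled at translation, so its mRNA need not track its protein.

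The libraries held 27285773 to 54056289 reads, and 17559 genes passed the low-count filter, among them all 10 of the list. Values are given as CPM, counts scaled to a common library size with TMM factors, which can be compared between libraries, or as TPM, which also corrects for length and is used to compare genes. An error after ± is the SD with n = 2. Fold changes are fitted log2 values with their standard error (SE), and a gene was called at a Benjamini-Hochberg adjusted p under 0.05 over all genes tested with edgeR's quasi-likelihood test. An exact permutation test of 2 libraries against 2 can give no p below 0.333, so each call rests on the spread that edgeR shares across genes. The K562 label was checked against 7 erythroid genes, whose summed level was 949 to 1673 CPM over the 16 libraries. The 5 megakaryocyte genes together were at 58.3 to 68.2 CPM at 0 h and at 5388 to 6196 CPM at 72 h, and 4 of the 5 were called higher at 72 h. These sums rest on different genes. At 0 h ITGA2B had 57.7 CPM and the others 0.095 to 3.53 CPM. At 72 h THBS1 had 4593, ITGB3 1092, ITGA2B 61.9, CD9 40.3 and FLI1 4.48 CPM, and ITGA2B was at 13.1 CPM at 24 h. The part of the megakaryocyte genes in the values of the list was not tested. Among markers of other cell types, CD3E, NCAM1, CD14 and MS4A1 had at most 0.587 CPM (NCAM1 and MS4A1 were at 0 in some libraries), and CDH1 at most 4.65 CPM. EPCAM lay between 16.6 and 83.2 CPM, PECAM1 between 15.7 and 48.5 CPM, COL1A2 between 3.22 and 19.7 CPM, and COL1A1 went from 3.46 ± 0.52 CPM at 0 h to 242 ± 2.1 CPM at 48 h. The 0 h replicate 2 library stood apart: the correlation across genes of its deviations from the mean of all 16 libraries with transcript GC content was 0.355, against -0.191 to 0.202 in the other libraries.

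Before treatment, ATF5 had the highest level per length of the 10 genes, at 705 ± 119 TPM. DDIT4 followed at 439 ± 50.2 TPM, ATF4 at 394 ± 10.1 TPM and ASNS at 384 ± 72.9 TPM. TRIB3, PHGDH and PSAT1 stood at 307 ± 44.7, 260.0 ± 22.3 and 253 ± 2.7 TPM, SESN2 and DDIT3 at 122 ± 10.5 and 116 ± 0.56 TPM, and CHAC1 was lowest at 38.5 ± 3.4 TPM. Of the 9 neighbouring pairs in this order, 5 had overlapping values: ATF4 and ASNS, ASNS and TRIB3, TRIB3 and PHGDH, PHGDH and PSAT1, and SESN2 and DDIT3. By 72 h the order had turned. ATF4 was then highest at 257 ± 8.0 TPM, followed by DDIT4 at 140.4 ± 4.8 TPM, TRIB3 at 99.3 ± 0.57 TPM and DDIT3 at 95.4 ± 17.0 TPM, of which TRIB3 and DDIT3 overlapped. ASNS at 53.7 ± 10.6 TPM and SESN2 at 49.8 ± 1.4 TPM overlapped, as did PHGDH at 44.7 ± 2.4 TPM and ATF5 at 39.4 ± 9.2 TPM. PSAT1 was at 15.7 ± 3.8 TPM and CHAC1 at 2.99 ± 0.51 TPM.

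**Figure D1:**
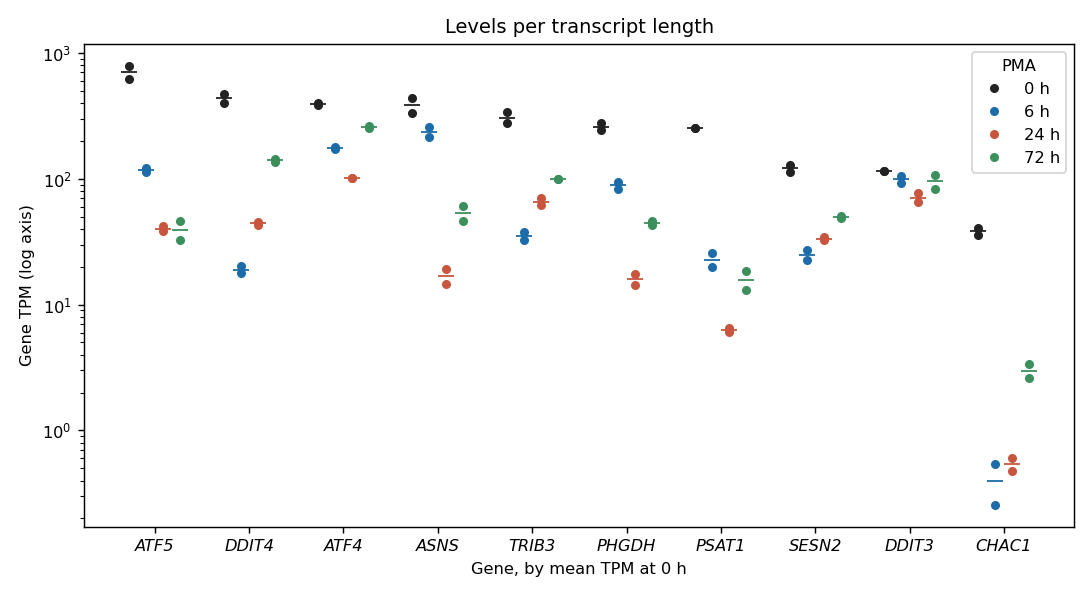
Level of each gene in TPM (log axis) at 0, 6, 24 and 72 h; each point is 1 library and each short line the mean of 2, with genes ordered by their mean at 0 h. ATF5 leads at 0 h with 705 TPM, ATF4 leads at 24 and 72 h, and CHAC1 is lowest at every time shown.

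CHAC1, an enzyme that breaks down glutathione, lies on chromosome 15 at 40952962 to 40956519 (GRCh38, plus strand), and nearly all of its reads at 0 h came from 1 transcript, CHAC1-204. A pair of promoter windows from the RefSeq promoter table (GRCh38.p14) hold the letters TGATGNAA, searched on both strands over the 250 bases before and 50 after each RefSeq start. These letters are the core of the element that ATF4 binds with C/EBP partners. They were found in 2 of the 17 windows of the 10 genes and in 3.62% of all 35116 windows, or in 2 of the 10 genes and 4.46% of all 27305 genes. The cyclic AMP element TGACGTCA, which does not overlap with them in sequence, was found in 0 of the 17 windows and in 1.85% of all windows. Below, capitals mark the match with 11 bases on each side, read along the gene's strand, for CHAC1 at chr15:40953251-40953280 and for ASNS at chr7:97872458-97872487. DDIT4, the listed gene with the time course most like that of CHAC1, is shown for contrast by the 246 bases before its annotated start, chr10:72273674-72273919, with neither motif.

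CHAC1: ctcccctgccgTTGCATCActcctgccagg
ASNS: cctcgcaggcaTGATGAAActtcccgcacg
DDIT4: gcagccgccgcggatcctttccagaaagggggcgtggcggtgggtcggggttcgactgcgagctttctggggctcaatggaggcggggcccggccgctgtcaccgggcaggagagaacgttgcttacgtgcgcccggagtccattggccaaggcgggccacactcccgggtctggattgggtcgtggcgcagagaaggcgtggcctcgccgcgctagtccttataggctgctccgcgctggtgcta

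The CHAC1 match reads on the opposite strand and its first base lies 209 bases before the RefSeq start, and the ASNS match lies 68 bases before one. The first base of the GENCODE transcript ASNS-202 is 97872471, inside the match. A match of letters is not a binding site, and the other 8 genes may hold the element outside these windows.

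CHAC1 had 30.6 and 38.3 CPM in the 0 h libraries and 33.5 and 35.8 CPM at 0.5 h. It had 13.9 and 16.9 CPM at 1.5 h, 1.32 and 0.848 CPM at 3 h, 0.256 and 0.637 CPM at 6 h, and 0.29 and 0.602 CPM at 24 h. The last 2 time points gave 1.77 and 1.95 CPM at 48 h, then 2.23 and 2.84 CPM at 72 h. Both libraries from 1.5 h onward lay below all 4 of 0 and 0.5 h, and those from 3 h onward lay below both of 1.5 h. At 6 and 24 h CHAC1 rested on 6, 18, 9 and 29 reads, against 996 and 1191 at 0 h. Mean CPM was 31.8-fold lower at 3 h and 77.1-fold lower at 6 h than at 0 h, both as descriptions. In bulk RNA, fewer cells that express a gene and less RNA per cell cannot be told apart, here and for every gene below.

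Comparisons that avoid the 0 h and 3 h libraries could be tested for CHAC1. It fell from 0.5 to 1.5 h by 1.17 on the log2 scale (SE 0.22, adjusted p = 0.0057), but without 1 library the call was lost: with 0.5 h replicate 2 left out the adjusted p was 0.063, and with 1.5 h replicate 1 left out it was 0.11. From 1.5 to 6 h it fell by 5.05 (SE 0.33, adjusted p = 1.9e-08). It then rose from 24 to 48 h by 1.97 (SE 0.34, adjusted p = 0.0015), and its level at 72 h was 5.45-fold above that at 6 h (log2 2.45, SE 0.36, adjusted p = 5.7e-05). The level at 72 h was still 7.36% of the 0 h mean.

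**Figure D2:**
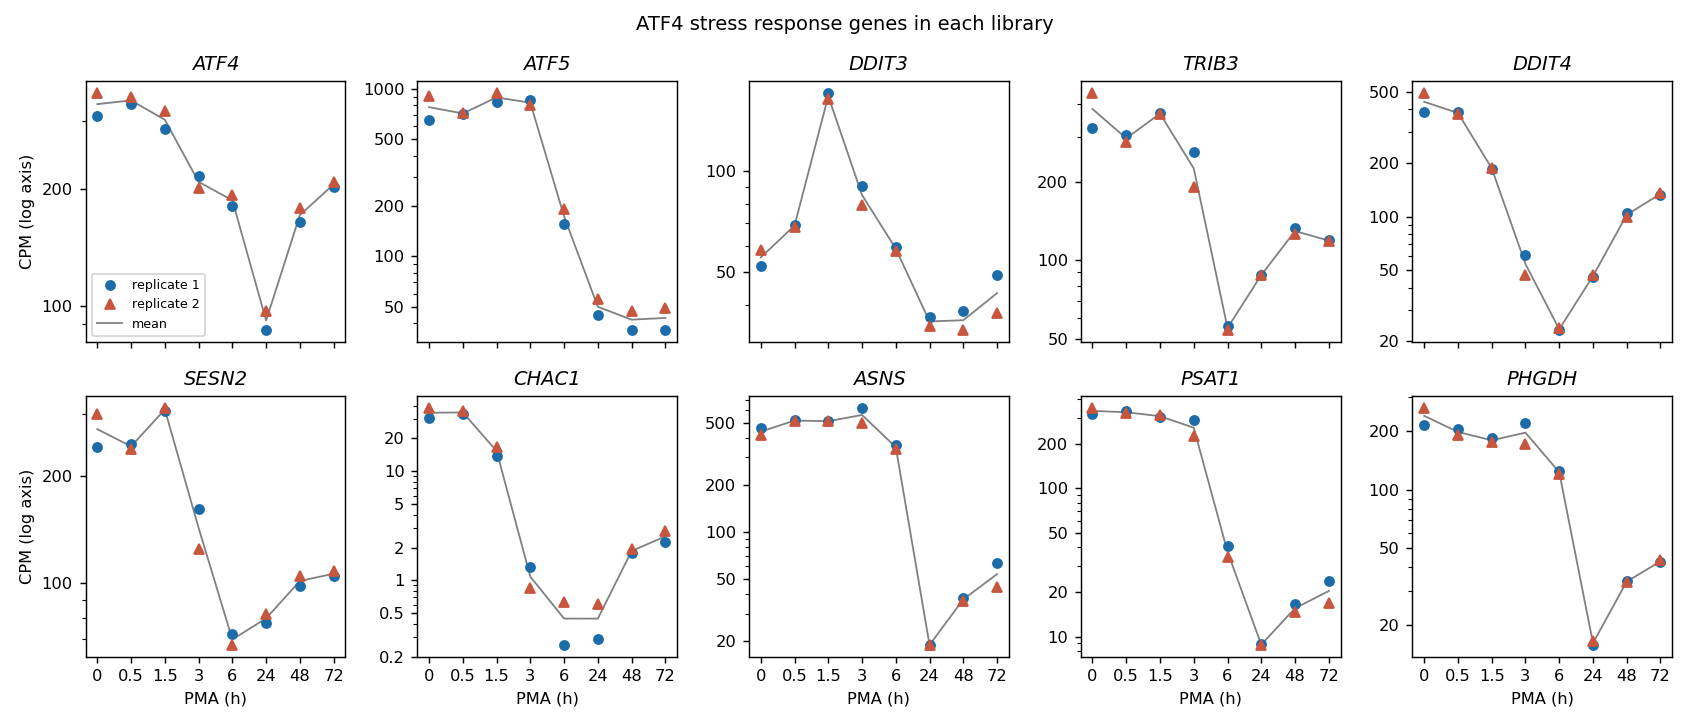
CPM (log axis) of the 10 genes against hours of PMA, evenly spaced by time point; circles are replicate 1, triangles replicate 2 and lines the mean of 2. CHAC1 drops from 34.4 CPM at 0 h to 0.45 CPM at 6 h, DDIT3 peaks at 1.5 h with 167 CPM, and ASNS, PSAT1 and PHGDH reach their lowest level at 24 h.

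DDIT4 (also REDD1), an inhibitor of the growth kinase complex mTORC1, lies on chromosome 10 at 72273920 to 72276036. DDIT4 shares 847 exon bases with DDIT4-AS1 on the opposite strand. Its libraries had 387 and 494 CPM at 0 h, 386 and 377 CPM at 0.5 h, 185 and 189 CPM at 1.5 h, and 61.4 and 47.2 CPM at 3 h. They had 23.1 and 23.7 CPM at 6 h, 45.7 and 47.3 CPM at 24 h, 105 and 100.3 CPM at 48 h, and 133 and 136 CPM at 72 h. From 1.5 h on, no library of 1 time point overlapped with those of the next. DDIT4 fell at each step from 0.5 to 6 h, by 1.03, 1.78 and 1.21 on the log2 scale (SE 0.12 to 0.13, adjusted p = 0.00016, 2.4e-07 and 5.8e-06). At 6 h it was 18.8-fold below 0 h (log2 -4.23, SE 0.14, adjusted p = 2.3e-11). It then rose 1.99-fold from 6 to 24 h and 2.20-fold from 24 to 48 h (adjusted p = 2.4e-05 and 4.8e-05), and at 72 h it remained 3.28-fold below 0 h (adjusted p = 5.2e-08).

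SESN2 (sestrin 2), a leucine sensor that also restrains mTORC1, lies on chromosome 1 at 28259527 to 28282491. It had 242 and 300.0 CPM at 0 h, 247 and 238 CPM at 0.5 h, 304 and 312 CPM at 1.5 h, and 162 and 125 CPM at 3 h. Later libraries had 72.0 and 67.2 CPM at 6 h, 77.4 and 82.3 CPM at 24 h, 98.2 and 105 CPM at 48 h, and 105 and 108 CPM at 72 h. All libraries from 3 h on lay below all earlier ones. SESN2 fell 2.15-fold from 1.5 to 3 h (adjusted p = 1.6e-05) and again from 3 to 6 h (log2 -1.04, SE 0.12, adjusted p = 1.5e-05). At 72 h it was above its 6 h level by 0.61 (SE 0.12, adjusted p = 0.00081).

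Among the transcription factors, ATF4 itself lies on chromosome 22 at 39519695 to 39522685. It had 309 and 355 CPM at 0 h, 331 and 347 CPM at 0.5 h, 286 and 319 CPM at 1.5 h, and 217 and 201 CPM at 3 h. It went on at 181 and 193 CPM at 6 h, 86.6 and 96.8 CPM at 24 h, 165 and 178 CPM at 48 h, and 202 and 209 CPM at 72 h. The 24 h pair lay below every other library, and the pairs from 3 h on lay below those of the first 3 time points. ATF4 fell from 1.5 to 3 h (log2 -0.53, SE 0.10, adjusted p = 0.0012) and from 6 to 24 h (log2 -1.03, SE 0.10, adjusted p = 1.6e-06), and rose 1.87-fold from 24 to 48 h (adjusted p = 5.1e-05). Its lowest mean was 27.6% of 0 h, so its mRNA fell less, relative to 0 h, than that of 8 of the other 9 genes at their lowest.

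ATF5, a related factor whose translation is controlled in a like way, lies on chromosome 19 at 49928702 to 49933935. It had 654 and 905 CPM at 0 h, 707 and 722 CPM at 0.5 h, 833 and 948 CPM at 1.5 h, and 859.6 and 798 CPM at 3 h. It dropped to 156 and 191 CPM at 6 h, 44.7 and 55.3 CPM at 24 h, 36.5 and 47.4 CPM at 48 h, and 36.3 and 49.5 CPM at 72 h. The 0 h pair overlapped with those of 0.5, 1.5 and 3 h, the 0.5 h pair lay below both later ones, and every library from 6 h on lay far below all of these. ATF5 fell from 3 to 6 h (log2 -2.26, SE 0.19, adjusted p = 7.2e-07) and from 6 to 24 h (log2 -1.79, SE 0.19, adjusted p = 3.8e-06). At 72 h it was 18.2-fold below 0 h (log2 -4.18, SE 0.21, adjusted p = 1.1e-09), and its change from 24 to 48 h of -0.26 did not pass the test (adjusted p = 0.42), though it did with GC trends removed and a replicate block (log2 -0.21, adjusted p = 0.026). The minor transcript ATF5-202 made up 0.071% of the gene's reads at 0 h and 8.05% at 72 h, with 0.56 ± 0.13 and 3.63 ± 0.19 TPM. ATF5 overlaps NUP62, on the opposite strand, which had 60.4 to 159 CPM, and IL4I1, which had at most 1.87 CPM. Whether the counting used strand is not given in the sources used here, so reads from such overlaps cannot be told apart.

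DDIT3 (CHOP), a C/EBP-family factor linked to cell death under lasting stress, lies on the minus strand of chromosome 12 at 57516588 to 57521737. It had 52.3 and 58.4 CPM at 0 h, 69.2 and 68.4 CPM at 0.5 h, 171 and 164 CPM at 1.5 h, and 90.6 and 79.2 CPM at 3 h. Thereafter it had 59.6 and 57.9 CPM at 6 h, 36.7 and 34.6 CPM at 24 h, 38.3 and 33.6 CPM at 48 h, and 48.9 and 37.7 CPM at 72 h. Both 1.5 h libraries stood above all others. DDIT3 was the only one of the 9 tested genes called higher at any time against 0 h: it rose 3.02-fold at 1.5 h (SE of the log2 value 0.12, adjusted p = 1.2e-06) and fell from 1.5 to 3 h by 0.98 (SE 0.12, adjusted p = 3.1e-05). With the GC trend of each library removed, DDIT3 was not alone: ATF5 (log2 0.49, adjusted p = 0.018), SESN2 (log2 0.46, adjusted p = 0.00018) and TRIB3 (log2 0.27, adjusted p = 0.049) were also called higher at 1.5 h. At 6 h it differed from 0 h by 0.09 (SE 0.12, adjusted p = 0.57), a value that turned to -0.28 (adjusted p = 0.039) when libraries were scaled to total counts. It was lower than at 0 h at 24 h (log2 -0.63, SE 0.12, adjusted p = 0.00047) and at 72 h (log2 -0.35, SE 0.12, adjusted p = 0.021), and the 72 h call was lost without 0 h replicate 2 (adjusted p = 0.12) or 72 h replicate 2 (adjusted p = 0.21). DDIT3 overlaps MARS1, a transfer RNA synthetase gene on the opposite strand, which had 157 to 506 CPM, and MBD6, which had 47.4 to 76.8 CPM.

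TRIB3, a pseudokinase that is switched on by ATF4 and DDIT3 and restrains them, lies on chromosome 20 at 362835 to 397559. It had 324 and 442 CPM at 0 h, 305 and 285 CPM at 0.5 h, 370.4 and 365 CPM at 1.5 h, and 261 and 192 CPM at 3 h. It had 56.0 and 53.9 CPM at 6 h, 87.9 and 87.8 CPM at 24 h, 133 and 126 CPM at 48 h, and 120.0 and 119 CPM at 72 h. The 6 h pair was lowest, and no library from 6 h on reached those of 0 to 3 h. TRIB3 fell from 1.5 to 3 h (log2 -0.70, SE 0.14, adjusted p = 0.0024) and from 3 to 6 h (log2 -2.04, SE 0.15, adjusted p = 1.9e-07), and rose from 6 to 24 h (log2 0.68, SE 0.15, adjusted p = 0.0015). The rise from 24 to 48 h (log2 0.56, SE 0.14, adjusted p = 0.018) was not called without any 1 of the 4 libraries, at adjusted p between 0.069 and 0.11.

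Of the enzymes, ASNS makes asparagine and lies on the minus strand of chromosome 7 at 97852118 to 97872542. It had 459 and 417 CPM at 0 h, 517 and 514 CPM at 0.5 h, 510.0 and 512 CPM at 1.5 h, and 624 and 497 CPM at 3 h. It had 359.8 and 337 CPM at 6 h, 18.9 in both libraries at 24 h, 37.8 and 36.2 CPM at 48 h, and 62.9 and 44.4 CPM at 72 h. No library up to 6 h came near any from 24 h on. ASNS at 6 h was not called against 0 h (log2 -0.33, SE 0.14, adjusted p = 0.057). It was called lower there with a replicate block (adjusted p = 0.026), without the low-count filter (0.026), with GC trends removed (0.0033) and with libraries scaled to total counts (log2 -0.70, adjusted p = 0.00019). Against 3 h it was called lower (log2 -0.68, SE 0.14, adjusted p = 0.0013). From 6 to 24 h it fell 18.5-fold (log2 -4.21, SE 0.16, adjusted p = 3.7e-10), and from 24 to 48 h it rose 1.96-fold (adjusted p = 0.00062). Its pseudogene ASNSP1 had 23.2 CPM at 0 h, 9.77 CPM at 3 h, 1.67 CPM at 6 h and 0.18 CPM at 24 h. It was thus already far down at 6 h, where ASNS was not. Reads may be split between ASNS and ASNSP1, and their sequences were not compared. ASNS also shares 1985 exon bases with ENSG00000284707 on the same strand, whose level is not given here.

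PSAT1 and PHGDH catalyse consecutive steps of serine synthesis. PSAT1, on chromosome 9 at 78297143 to 78330093, had 315 and 349.6 CPM at 0 h, 329.9 and 322 CPM at 0.5 h, 303 and 310.3 CPM at 1.5 h, and 288 and 224 CPM at 3 h. It had 40.5 and 34.1 CPM at 6 h, 8.84 and 8.78 CPM at 24 h, 16.5 and 14.5 CPM at 48 h, and 23.9 and 16.7 CPM at 72 h. PSAT1 fell from 3 to 6 h (log2 -2.78, SE 0.16, adjusted p = 2.3e-08) and from 6 to 24 h (log2 -2.08, SE 0.17, adjusted p = 2.6e-07), to 2.65% of its 0 h mean. It rose 1.76-fold from 24 to 48 h (adjusted p = 0.0050), a call lost without 48 h replicate 1 (adjusted p = 0.054).

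PHGDH, the first enzyme of the same pathway, lies on chromosome 1 at 119648411 to 119744226. It had 216 and 265 CPM at 0 h, 206 and 192 CPM at 0.5 h, 184 and 176 CPM at 1.5 h, and 222 and 173 CPM at 3 h. It had 125 and 121 CPM at 6 h, 15.8 and 16.5 CPM at 24 h, 33.9 and 33.3 CPM at 48 h, and 42.2 and 43.3 CPM at 72 h. The pairs of 0, 0.5 and 1.5 h were apart, each below the one before, and the 3 h pair overlapped with all 3. Those of 6, 24, 48 and 72 h were each apart from the rest. PHGDH fell from 3 to 6 h (log2 -0.68, SE 0.12, adjusted p = 0.00038), fell 7.60-fold from 6 to 24 h (log2 -2.93, SE 0.13, adjusted p = 1.1e-09) and rose 2.08-fold from 24 to 48 h (adjusted p = 8.1e-05). Its call at 1.5 h against 0 h (log2 -0.42, SE 0.12, adjusted p = 0.027) was lost without 0 h replicate 2 (adjusted p = 0.27) and without either 1.5 h library (adjusted p = 0.097 and 0.17).

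Set in order, the steps fell at different times. The largest falling step was from 1.5 to 3 h for CHAC1 (log2 -3.81, not tested), DDIT4, SESN2 and DDIT3. For DDIT3 this step came down from its 1.5 h peak, to a mean of 84.9 CPM at 3 h against 55.4 CPM at 0 h. The largest fall was from 3 to 6 h for ATF5, TRIB3 and PSAT1, and from 6 to 24 h for ATF4, ASNS and PHGDH. The intervals between time points differ in length, so these steps are not rates. PSAT1 and PHGDH thus differed in timing. At 6 h PSAT1 was at 11.2 ± 1.4% of its 0 h mean and PHGDH at 51.2 ± 1.2%, with no overlap. These errors are the SD of the 6 h libraries only, with the 0 h mean taken as fixed. The SD of the 0 h libraries was 7.31% of their mean for PSAT1 and 14.5% for PHGDH. The lowest means relative to 0 h were 1.30% for CHAC1, 2.65% for PSAT1, 4.31% for ASNS, 5.31% for DDIT4, 5.38% for ATF5, 6.73% for PHGDH, 14.4% for TRIB3, 25.7% for SESN2, 27.6% for ATF4 and 64.4% for DDIT3.

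**Figure D3:**
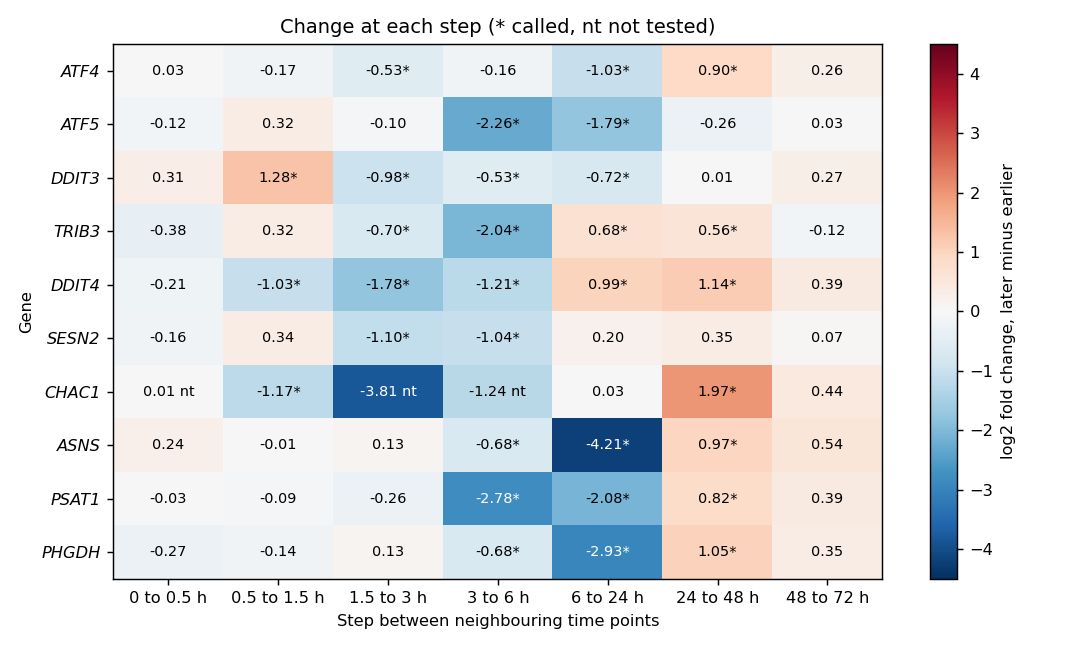
Fitted log2 change of each gene between neighbouring time points, later minus earlier (blue lower, red higher); a star marks a call and nt a value given with no test. The deepest steps stand further right from CHAC1 (-3.81, 1.5 to 3 h) through PSAT1 (-2.78, 3 to 6 h) to ASNS (-4.21, 6 to 24 h), and 7 genes are starred as higher from 24 to 48 h.

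Counts over the list have the share of all tested genes beside them. At 0.5 h against 0 h edgeR called 0 of 9 (0.171% of all genes either way, by adjusted p). At an unadjusted p under 0.05 there were 3, and DESeq2 called 0. Counts at an unadjusted p, by DESeq2 or with GC trends removed have no share of all genes beside them here, and nothing is read from them. Without 0 h replicate 1, which leaves the control library that stood apart, 3 were called, where 20.9% of all genes were. At 1.5 h 1 was higher and 2 lower (9.05% and 8.05% of all genes), and with GC trends removed 6 were called. At 3 h, with no test, CHAC1, whose value chose the list, and 1 of the other 9, DDIT4, were at least 2-fold lower (8.59% of all genes), and nothing is read from this count. At 6 h 7 of 9 were lower (29.4%). At 24, 48 and 72 h 9 of 9 were lower (26.6%, 24.1% and 26.9%). Without 0 h replicate 2, which leaves 1 control library, the log2 change of PHGDH at 1.5 h was -0.26 in place of -0.42. That of DDIT3 at 72 h was -0.27 in place of -0.35. The comparisons against 0 h share the 0 h libraries and are not independent of each other. The median log2 change of the 10 genes was -2.06 at 6 h, -3.57 at 24 h and -2.102 at 72 h. That of all genes was 0.00, -0.01 and -0.03. The medians of the 10 include CHAC1, whose 0 h and 3 h values chose the list (-6.21, -6.18 and -3.77), so they are descriptions only. When libraries were scaled to total counts, the median of all genes moved to between -0.35 and -0.02 against 0 h, and 3210 of 10595 calls at 6 h were higher in place of 4880 of 10040.

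Between neighbouring time points, 1 of 10 was higher and 2 were lower at 1.5 h against 0.5 h (4.11% and 1.67% of all genes). Then 5 of 9 fell from 1.5 to 3 h (12.1%) and 8 of 9 from 3 to 6 h (22.1%). From 6 to 24 h 6 of 10 fell and 2 rose (25.8% and 30.8%). From 24 to 48 h 7 of 10 rose (8.88%): ATF4, TRIB3, DDIT4, CHAC1, ASNS, PSAT1 and PHGDH. From 48 to 72 h edgeR called 0 of 10 (1.47% either way, by adjusted p). At an unadjusted p under 0.05 there were 6, and DESeq2 called 1, both without a share of all genes to set them against. From 1.5 to 6 h, without the control libraries, 10 of 10 fell (26.3%). DDIT3 fell there from its 1.5 h peak, and in the reported fit neither DDIT3 nor ASNS was called at 6 h against 0 h. The 72 h level was higher than that of 6 h for 4 genes and lower for 5 (31.6% and 25.6%). All 87 calls had the same sign within the replicate 1 and within the replicate 2 libraries. The calls were made from these same libraries, so the shared sign follows largely from the call and is no separate support.

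Lists of related genes that were made for the same pathway were counted in the same fit. Of all tested genes, 29.4% were called lower at 6 h, 26.6% at 24 h and 26.9% at 72 h. Those called higher were 4880, 5571 and 5562 of 17559. Of 13 other genes of amino acid and one-carbon synthesis, 13 were lower at 6 h, 12 lower and 1 higher at 24 h, and 13 lower at 72 h, with a median log2 change of -1.86, -2.05 and -2.04. Without 0 h replicate 2, which leaves 1 control library, not all of these calls at 72 h held. GPT2, mitochondrial alanine aminotransferase, went from 37.3 and 45.4 CPM at 0 h to 5.93 and 4.28 CPM at 6 h (log2 -3.02, SE 0.17, adjusted p = 4.1e-09). CTH, which makes cysteine, went from 114 and 119 CPM at 0 h to 15.3 and 14.2 CPM at 72 h (log2 -2.98, SE 0.09, adjusted p = 5.4e-12). PSPH, the last enzyme of serine synthesis, fell 4.27-fold and MTHFD2, of mitochondrial folate metabolism, 4.67-fold at 6 h (adjusted p = 2.9e-10 and 2.9e-08). The 3 genes of the serine route thus all stood lower at 6 h than at 0 h.

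Of 20 cytosolic transfer RNA synthetases, 15 were lower and 1 higher at 6 h, and 17 lower and 2 higher at 72 h, with medians of -0.95 and -0.85. AARS1, for alanine, fell by 2.64 at 6 h (SE 0.11, adjusted p = 1.7e-10) and WARS1, for tryptophan, by 1.93 at 72 h (SE 0.10, adjusted p = 1.1e-09). HARS1, for histidine, rose by 0.63 at 6 h (adjusted p = 5.9e-06) and RARS1, for arginine, by 0.75 at 72 h (adjusted p = 5.0e-05).

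Of 11 amino acid transporters, 7 were lower and 3 higher at 6 h, and 8 lower and 2 higher at 72 h, with medians of -0.74 and -1.20. The glycine transporter SLC6A9 went from 59.1 and 76.9 CPM at 0 h to 4.91 and 4.57 CPM at 6 h (log2 -3.84, SE 0.17, adjusted p = 2.9e-10). SLC38A2, a transporter of small neutral amino acids, went the other way, from 713 and 462 CPM to 3485 and 3149 CPM (log2 2.50, SE 0.20, adjusted p = 1.5e-07). SLC7A11, which imports cystine for glutathione synthesis, had 343 and 229.9 CPM at 0 h, 611 and 536 CPM at 6 h, 33.1 and 26.6 CPM at 24 h, and 17.1 and 13.9 CPM at 72 h. It was thus 2-fold higher at 6 h (log2 1.00, SE 0.17, adjusted p = 0.00018) and 18.4-fold lower at 72 h (log2 -4.20, SE 0.20, adjusted p = 4.9e-10).

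Of 11 genes of glutathione metabolism, 5 were lower and 2 higher at 6 h, and 5 lower and 3 higher at 72 h, with medians of -0.29 and -0.31. The subunits of glutamate-cysteine ligase, the first enzyme of glutathione synthesis, rose at 6 h, GCLC by 1.51 (SE 0.13, adjusted p = 1.9e-07) and GCLM by 1.43 (SE 0.15, adjusted p = 2.2e-06). At 72 h GCLM was higher by 1.46 (adjusted p = 1.9e-06) and GCLC lower by 0.64 than at 0 h (log2 -0.64, adjusted p = 0.00067). OPLAH, which recycles the 5-oxoproline that glutathione breakdown releases, fell by 1.51 at 6 h (adjusted p = 2.7e-06). CHAC2, the close relative of CHAC1, had 4.30 and 2.74 CPM at 0 h, 3.71 and 2.62 CPM at 6 h, and 5.32 and 2.09 CPM at 72 h. Its log2 change was -0.16 (SE 0.39, adjusted p = 0.76) at 6 h and 0.08 (SE 0.38, adjusted p = 0.87) at 72 h, and its time points overlapped.

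Upstream, of 17 genes of eIF2 control, 6 were lower and 5 higher at 6 h, and 8 lower and 7 higher at 72 h, with medians of -0.13 and -0.09. Of the 4 eIF2 kinases, EIF2AK3 (PERK, the endoplasmic reticulum kinase) rose at 6 h by 1.55 (SE 0.16, adjusted p = 1.8e-06), from 11.8 and 13.5 CPM to 32.8 and 41.5 CPM. The haem-regulated kinase EIF2AK1 fell by 1.80 (SE 0.10, adjusted p = 2.2e-09), from 248 and 276 CPM to 73.2 and 77.5 CPM. EIF2AK4 (GCN2, the amino acid sensor) fell 2.15-fold (adjusted p = 2.3e-07) and EIF2AK2 (PKR) by 0.76 on the log2 scale (adjusted p = 0.00034). At 72 h EIF2AK2 was higher than at 0 h by 0.65 (adjusted p = 0.0011), and EIF2B3, a subunit of the eIF2 exchange factor, was lower (log2 -1.21, SE 0.09, adjusted p = 4.3e-08). PPP1R15A (GADD34), a phosphatase subunit that reverses eIF2 phosphorylation and an ATF4 pathway gene itself, rose at 6 h by 1.30 (SE 0.12, adjusted p = 5.0e-07) and was higher at 72 h by 0.67 (adjusted p = 0.00023).

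Of 17 partner factors and stress outputs, 9 were lower and 5 higher at 6 h, and 12 lower and 3 higher at 72 h, with medians of -0.61 and -1.102. The secreted glycoprotein STC2 went from 58.7 and 60.6 CPM at 0 h to 1.02 and 1.24 CPM at 6 h and 2.26 and 2.75 CPM at 72 h (log2 at 6 h -5.71, SE 0.16, adjusted p = 4.8e-12). JUN, an AP-1 subunit, rose by 2.90 at 6 h and the growth arrest gene GADD45A by 3.00 (adjusted p = 3.1e-10 and 5.7e-10). ATF3, a further stress factor, was higher at 1.5 h by 1.91 (SE 0.12, adjusted p = 2.7e-07) and at 6 h by 0.45 (adjusted p = 0.0059), and lower at 24 h (log2 -1.58, SE 0.13, adjusted p = 1.3e-07). Like DDIT3, it thus stood above 0 h at 1.5 h and below it at 24 h.

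Of 17 genes of the unfolded protein response in the endoplasmic reticulum, 9 were lower and 4 higher at 6 h, and 7 lower and 7 higher at 72 h, with medians of -0.52 and 0.24. HERPUD1, of protein disposal, fell by 2.81 at 6 h (SE 0.11, adjusted p = 9.6e-11). The chaperone HSPA5 (BiP) was higher at 1.5 h by 0.56 (adjusted p = 0.0029) and lower at 6 h (log2 -1.62, SE 0.11, adjusted p = 1.5e-08). The chaperone HSP90B1 was higher at 6 h by 0.64 (adjusted p = 0.00016) and at 72 h by 1.25 (adjusted p = 3.1e-07). These lists were chosen with earlier results of the data known, and their counts describe them against the shares of all genes called either way at 6 h (57.2%), 24 h (58.3%) and 72 h (58.6%).

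**Figure D4:**
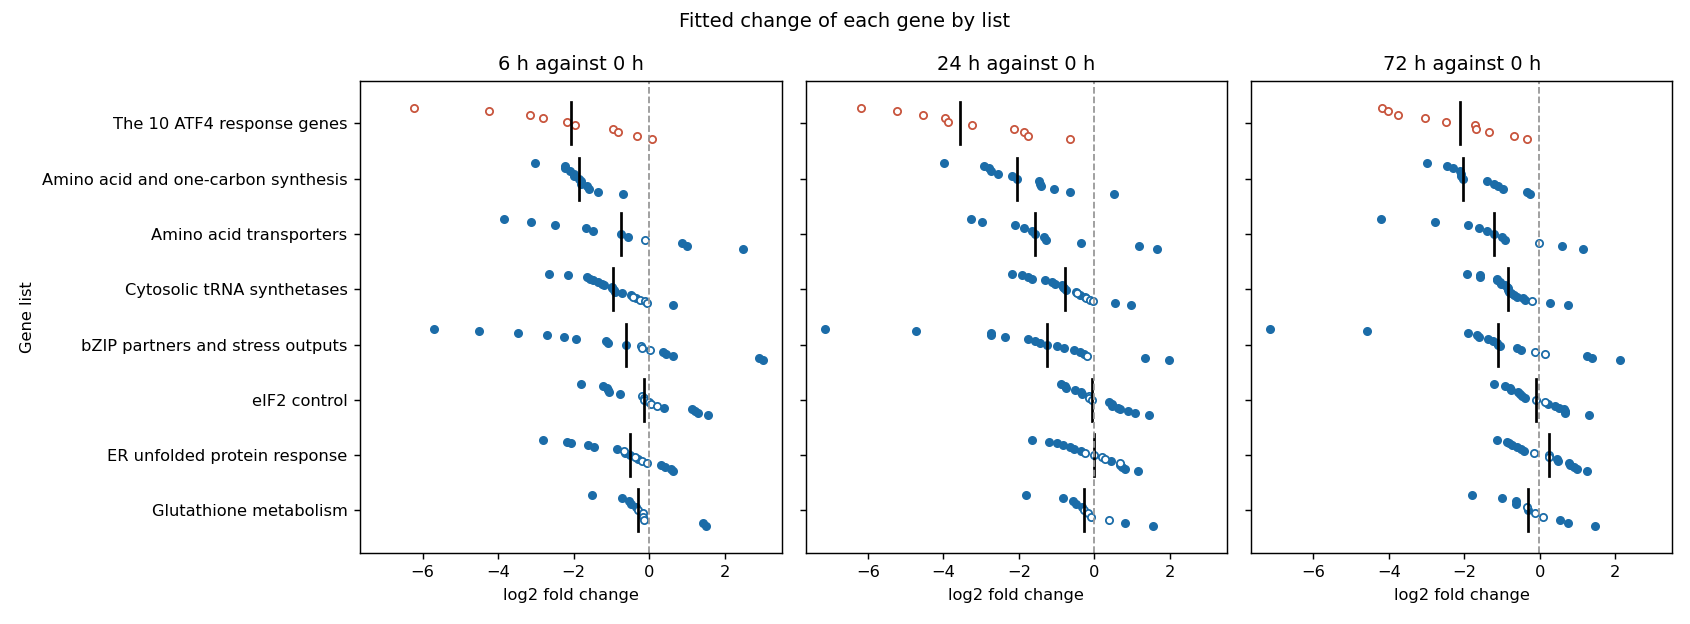
Fitted log2 change of each gene against 0 h at 6, 24 and 72 h, by list; filled points were called, open blue points were not, red points are the 10 genes of the ATF4 response drawn without calls, black bars are list medians and the dashed line is the median of all genes. All 13 genes of amino acid and one-carbon synthesis lie left of 0 at 6 and 72 h, while eIF2 control and the unfolded protein response spread to both sides.

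The genes with a time course most like that of CHAC1 were sought among the 11268 tested genes that averaged 5 CPM or more. Likeness was the smaller of 2 Pearson correlations of log2 CPM over the 8 time points, within the replicate 1 and within the replicate 2 libraries, as a description with no p. POC1A (centriole assembly) and E2F2 (a cell cycle factor) led at 0.980 each, then PIM2 (a survival kinase) at 0.977, ALG1L13P (a pseudogene with near-identical copies, so its reads are uncertain) at 0.976 and KCNE3 (a potassium channel subunit) at 0.974. E2F2 had 74.8 ± 8.4 CPM at 0 h, 17.5 ± 1.4 CPM at 3 h, 9.85 ± 0.64 CPM at 6 h and 20.4 ± 1.2 CPM at 72 h. PIM2 had 142 ± 21.2 CPM at 0 h, 37.9 ± 0.067 CPM at 6 h and 61.7 ± 5.1 CPM at 72 h. Within the ATF4 list, DDIT4 ranked 15 with 0.955, SESN2 57 with 0.914, TRIB3 203 with 0.868 and ATF4 254 with 0.851. PSAT1, ATF5, PHGDH, ASNS and DDIT3 ranked between 1048 and 3079, with 0.721 down to 0.403. A correlation of log values does not see the size of a change: CHAC1 was at 1.30% of its 0 h mean at 6 h, and DDIT4 at 5.31%.

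**Figure D5:**
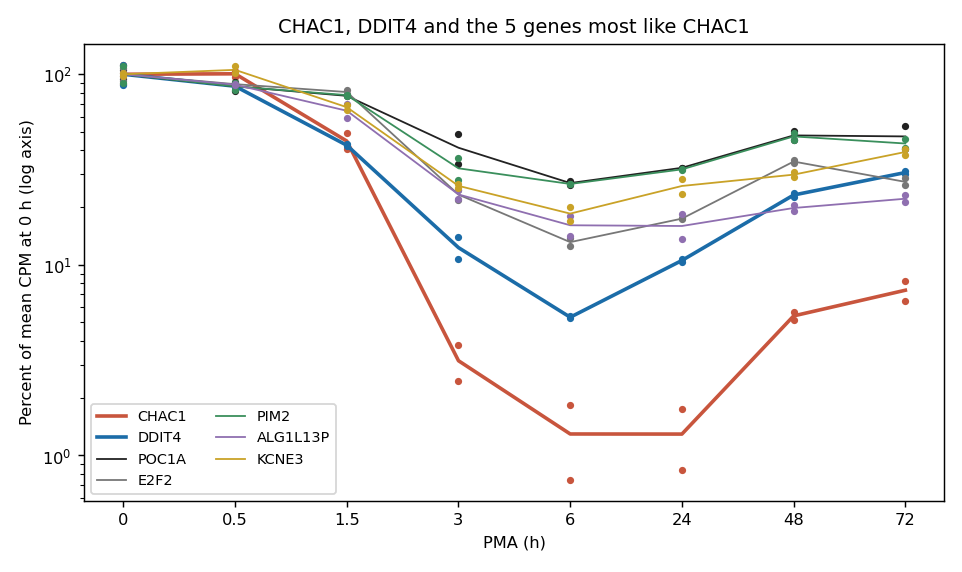
CPM as a percentage of the gene's mean at 0 h (log axis) against hours of PMA, evenly spaced by time point, for CHAC1, DDIT4 and the 5 genes with the most similar time course; points are libraries and lines the mean of 2. All 7 have lower means at 3 h than at 1.5 h, and CHAC1 reaches 1.30% where DDIT4 reaches 5.31%.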

How the data were processed

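RNA of K562 cells was sequenced in 16 libraries, 2 at each of 8 times of 25 nM PMA. Per the file headers, the deposited values are an estimated count of reads and a TPM per transcript, in the column names of Salmon, with transcript lengths beside them; the submitters' processing notes name Salmon, Trim Galore 0.4.3 and the builds hg19 and hg38. Salmon's version, the annotation release and the use of strand are not given in the sources used here. Transcripts were matched to GENCODE 29 (GRCh38) by identifier: 167027 of 177456 (94.1%) matched, and the rest held 3.01 to 3.75% of reads and were left out. Estimated counts were summed per gene and rounded; gene TPM is the sum of the deposited TPM values.

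Testing used R 4.3.3 with edgeR 4.0.16: filterByExpr, TMM factors (0.854 to 1.139), 1 quasi-likelihood fit of all 8 times (common biological coefficient of variation 0.123), 15 contrasts, and Benjamini-Hochberg adjustment over 17559 genes. Fold changes used a prior count of 0.125. At these depths 3 reads are 0.062 to 0.128 CPM; intervals and floors would cover counting error only. The 10 genes and the 7 related lists (amino acid and one-carbon synthesis, transfer RNA synthetases, amino acid transporters, glutathione metabolism, eIF2 control, partner factors and stress outputs, and unfolded protein response) and the marker lists were chosen with earlier results of these data known. All 10 genes are named; from each related list the rule names the called genes with the largest rise and fall at 6 h and 72 h with a mean of at least 5 CPM, plus landmark genes. Alternatives were the size factors of DESeq2 1.42.0 in edgeR, total-count scaling, the DESeq2 Wald test, no filter, at least 10 counts in every library, counts from TPM, GC trends removed, a replicate block, both together, an adjusted p under 0.01, and each library left out; for the related lists the last was added after the data were seen. A marker of other cell types is not reported here.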

Additional observations from a re-analysis of the deposited data

Results flagged for a closer look

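For 9 of the 10 genes the change against 0 h differed between 72 h and 6 h, by edgeR's test of 72 h against 6 h. That test does not use the 0 h libraries. Over all 17559 tested genes it called 31.6% higher and 25.6% lower at 72 h. The log2 difference, 72 h minus 6 h, was 2.52 for DDIT4, 2.45 for CHAC1, 1.12 for TRIB3 and 0.61 for SESN2, all 4 higher at 72 h. It was -2.70 for ASNS, -2.02 for ATF5, -1.53 for PHGDH, -0.88 for PSAT1 and -0.44 for DDIT3, all 5 lower at 72 h. The DDIT3 difference was lost without 72 h replicate 2 (adjusted p = 0.072) and with libraries scaled to total counts (adjusted p = 0.082). ATF4 differed by 0.14 (adjusted p = 0.26), and by 0.35 (adjusted p = 0.0027) with libraries scaled to total counts. With 2 libraries per time point, no single library could be tested as an outlier within its group.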

How the results depend on the processing

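Of the 87 calls for single genes, 81 held under every alternative that could be fitted and with each library left out; the other 6, DDIT3 at 72 h against 0 h and against 6 h, TRIB3 and PSAT1 from 24 to 48 h, CHAC1 from 0.5 to 1.5 h and PHGDH at 1.5 h, kept their direction. DDIT3 at 72 h against 0 h was also lost with the DESeq2 size factors (adjusted p = 0.057), with counts from TPM (0.075) and with the DESeq2 Wald test (0.052). The counts of the related lists stayed within 1.5 times throughout. Counts of the 10 genes moved by more in 4 comparisons. At 0.5 h against 0 h the count of 0 ranged from 0 to 3 with a library left out. At 1.5 h against 0 h the count of 3 became 6 with GC trends removed, and 6 with the replicate block as well. At 1.5 h against 0.5 h, 3 became 5 and 8, and over all genes 1014 calls became 2382 with both together. From 48 to 72 h the count of 0 became 1 without a filter, 1 with the replicate block, 4 with GC trends removed, 5 with both, 1 with DESeq2, and 0 to 1 with a library left out.

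The replicate numbers do not pair the samples by the labels, and deviations of same-numbered libraries correlated between -0.296 and 0.598, with a median of 0.267, over 28 pairs of time points. The gap between transcript length and effective length, which follows fragment length, was larger in replicate 2 at 7 of 8 time points. The replicate block alone changed the count of the 10 genes from 7 to 8 at 6 h against 0 h, by adding ASNS (adjusted p = 0.026), and left their other counts above 0 as they were.

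Changes that turned direction were not calls in the reported fit, and the cause was not tested. Those of TRIB3 at 1.5 h with GC trends removed (adjusted p = 0.049, and 0.020 with the block) and of DDIT3 at 6 h with total-count scaling (adjusted p = 0.039) were calls in the turned direction. With GC trends removed, alone or with the block, log2 values became 0.00066 for ATF4 at 1.5 h (alone), 0.20 and 0.21 for ATF5, 0.063 and 0.063 for DDIT4, and 0.14 and 0.14 for SESN2 at 0.5 h. They became 0.27 and 0.26 for TRIB3 at 1.5 h, 0.026 and 0.025 for TRIB3 from 48 to 72 h, -0.13 and -0.13 for SESN2 and -0.32 and -0.33 for CHAC1 from 6 to 24 h, and 0.0062 and 0.0054 for ASNS from 0.5 to 1.5 h. The last was also 0.0060 with the DESeq2 size factors, 0.0060 with the DESeq2 Wald test and 0.0017 with at least 10 counts in every library, a filter that drops CHAC1. Total-count scaling gave -0.28 for DDIT3 at 6 h, and -0.066 for ASNS and -0.069 for PHGDH from 1.5 to 3 h. With 1 library left out, log2 values at 0.5 h against 0 h ranged from -0.065 to 0.14 for ATF4, -0.34 to 0.13 for ATF5, -0.31 to 0.0027 for SESN2 and -0.10 to 0.048 for PSAT1. At 1.5 h against 0 h they ranged from -0.023 to 0.45 for ATF5 and -0.26 to 0.18 for TRIB3. They ranged from -0.060 to 0.29 for ASNS and -0.080 to 0.30 for PHGDH from 1.5 to 3 h, -0.70 to 0.85 for CHAC1 from 6 to 24 h, -0.085 to 0.10 for DDIT3 from 24 to 48 h, and -0.21 to 0.24 for ATF5 from 48 to 72 h. CHAC1 rested on 6 to 29 reads at 6 and 24 h.

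Counts over all genes, the background of the list, moved by over 1.5 times in 6 comparisons. At 0.5 h against 0 h, 30 became 18 to 3669, the latter without 0 h replicate 1. At 1.5 h against 0 h, 3003 became 1021 without 0 h replicate 2 and 5047 without 0 h replicate 1. From 0.5 to 1.5 h, 1014 became 434 to 2382, from 1.5 to 3 h 4408 became 2843 to 6807, from 24 to 48 h 2633 became 1134 to 4957, and from 48 to 72 h 258 became 37 to 1272, each highest with the replicate block and GC trends removed together.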
